A study of Mus musculus with 9 samples.

Results

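Regulatory T cells (Tregs) of the injured heart were compared with Tregs of the mediastinal lymph node (MLN), the node that drains the heart, by RNA sequencing. The comparison took all genes of the 3 heart libraries and the 3 MLN libraries, which are 6 of the 9 libraries of the study. The other 3 libraries, from spleen Tregs, entered the statistical model and serve below as a second lymphoid organ. All groups came from mice of the strain Foxp3-GFP, in which a green fluorescent reporter marks cells that express Foxp3. All mice were 8 weeks old and had had ischemia/reperfusion injury, a block of blood flow followed by its return, 3 days earlier, so no uninjured heart or node was compared here. Cells passed a magnetic sort followed by a fluorescence sort, and RNA was amplified as cDNA with a kit for very small inputs. The labels do not say whether libraries of 1 organ came from separate animals or from pools. P-values then speak of the spread among these libraries alone, and that spread may be technical.

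Tregs are CD4 T cells that restrain other immune cells, and the transcription factor FOXP3 defines the lineage. Naive-like Tregs recirculate through lymph nodes with the help of receptors such as CCR7, while effector Tregs lose CCR7 and enter tissues, where they are known for making IL-10 and amphiregulin and for responding to IL-33 through its receptor ST2. In injured muscle, tissue Tregs are known to act on macrophages and on repair. The question of the comparison is how Tregs at the site of injury differ from Tregs of the node to which that site drains.

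Heart libraries held 226279297 to 267520538 counts and MLN libraries 213834915 to 221872020, and 15052 to 18570 genes had at least 1 count in a library. Levels are given as CPM, counts scaled to library size, after scaling by trimmed mean of M-values (TMM), as mean ± SD with n = 3 unless library values are given. The first principal component of the 6 libraries held 45.8% of the variance and separated the organs, with MLN libraries between -234.3 and -193.9 and heart libraries between 198.4 and 227.4. On the second component (17.1%) heart library 2 lay at -215.6 and MLN library 3 at -129, while the other 4 lay above 0. The label was checked on Foxp3 (ENSMUSG00000039521), which stood at 8.77, 38.0 and 0.24 CPM in the heart (libraries 1, 2 and 3) and at 42.4, 41.8 and 46.3 CPM in MLN libraries 1, 2 and 3. The library labelled heart 3 thus held almost no Foxp3, although it held other genes of Tregs, such as Il2ra at 161, Ctla4 at 315 and Tigit at 785 CPM. The Treg genes Gpr83 and Izumo1r were low in it, at 1.66 and 17.6 CPM, against 24.6 to 31.6 and 182 to 301 CPM in the MLN. Both were low in heart libraries 1 and 2 as well. Whether the cells of heart library 3 were Tregs was not tested. Foxp3 did not pass the test between the organs (log2 -1.47, SE 1.34, adjusted p = 0.735). All p-values below are from edgeR's quasi-likelihood F test, adjusted over all genes tested, unless another tool is named.

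Genes of several other cell types took a larger share of heart counts than of MLN counts, and those of B cells a smaller one. A list of macrophage and monocyte genes made up 2.95, 1.69 and 2.68% of counts in heart libraries 1, 2 and 3 and 0.108 to 0.213% in the MLN libraries. Fibroblast and matrix genes made up 0.528 to 1.89% in the heart and 0.00312 to 0.0098% in the MLN. Endothelial genes were at 0.204 to 0.716% against 0.0354 to 0.0374%. A large part of this heart share came from Cd36, at 6954, 1152 and 1421 CPM in heart libraries 1, 2 and 3. Tissue Tregs and macrophages also express Cd36, so the share is not one of endothelial RNA alone. The list of innate lymphoid and mast cell genes was at 0.66 and 0.734% in heart libraries 1 and 2 and at 0.0534% in heart library 3, against 0.00306 to 0.0141% in the MLN. B cell genes went the other way, at 0.0177 to 0.0297% in the heart and 0.175 to 0.653% in the MLN. Genes of the T cell receptor and its coreceptors were at 0.454 to 0.792% against 1.07 to 1.15%, and Treg identity genes at 0.186 to 0.325% against 0.449 to 0.61%. In bulk samples such as these, fewer cells of a type and less RNA per cell cannot be told apart.

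**Figure D1:**
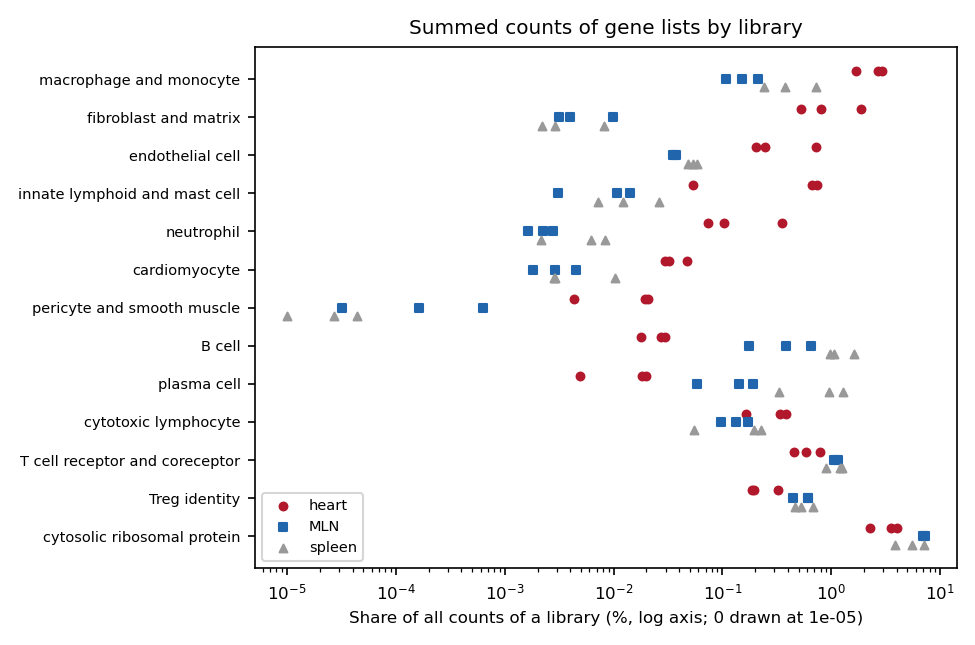
Summed counts of 13 gene lists as a share of all counts of each library (horizontal axis, %, log scale), with circles for heart, squares for MLN and triangles for spleen libraries. Heart libraries lie to the right of the MLN libraries for macrophage, stromal, muscle, mast cell and neutrophil lists, and to the left for B cell, plasma cell, T cell, Treg identity and ribosomal protein lists.

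Of 16609 genes tested, 230 (1.38%) differed between heart and MLN Tregs at an adjusted p below 0.05, and these are the genes written of below as called, risen or fallen. In the heart 183 (1.1%) were higher and 47 (0.283%) were lower. These shares are the background for the called members of lists given below, and no list was tested against them. The median log2 difference over all genes tested was 0.12. At an unadjusted p below 0.05 there were 2581 genes. In each of the 230 genes the 3 heart libraries did not overlap the 3 MLN libraries. This was the case for 26.2% of all genes tested, 14.9% with the heart higher and 11.2% with the heart lower. For 101 of the 183 higher genes the MLN libraries held no count, and for 85 of these 101 the spleen libraries held none either. Of the lower genes, 26 had no count in any heart library. Counts above 10 in each of the 6 libraries were found for 67 higher and 17 lower genes, out of 9926 such genes tested. For these the log2 difference lay between 1.8 and 11.27 (median 3.88) among the higher genes and between -3.61 and -1.69 (median -2.53) among the lower genes.

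The calls rested on few libraries. With heart library 3 or MLN library 1 left out, 0 genes passed the edgeR test (2490 and 2161 at an unadjusted p below 0.05), while limma-voom and DESeq2 called 1332 and 2211 genes with all libraries. Leaving out heart library 1 or 2 gave 24 and 59 genes, and leaving out MLN library 2 or 3 gave 39 and 36. Leaving out spleen library 1, 2 or 3, which are not part of the contrast, gave 170, 195 and 249 genes. No called gene passed in each of the 9 fits that left out 1 library, and the most any gene reached was 7 of 9. Counts out of 9 here and below include the fits without a spleen library. With heart library 2, MLN library 3 and spleen library 3 all left out, a choice made after seeing the data, 4 genes were called, of which 1, Fcer1g, was among the 230. The direction of each of the 230 genes was the same in all 19 alternatives. Scaling moved the balance: with total counts only, 139 genes were higher and 64 lower (68.5% of calls higher, against 79.6% with TMM), and the median over all genes was -0.10.

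**Figure D2:**
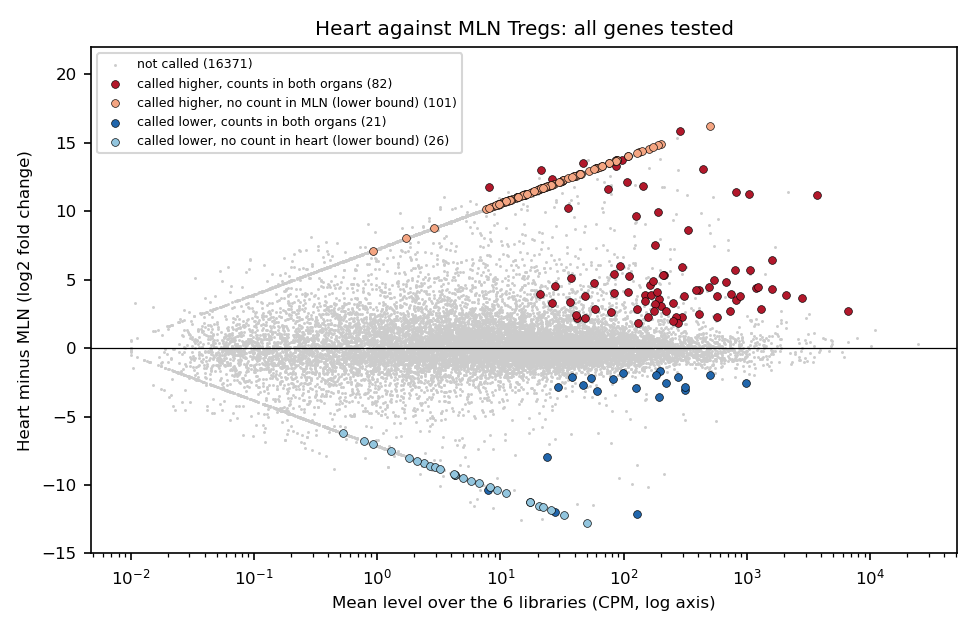
Log2 difference of heart minus MLN (vertical axis) against the mean level over the 6 libraries (horizontal axis, CPM, log scale), 1 point a gene. Grey points were not called, dark points were called with counts in both organs (82 higher, 21 lower), and pale points were called with no count in 1 organ (101 and 26) and are drawn at their lower bound of 3 counts a library.

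**Figure D3:**
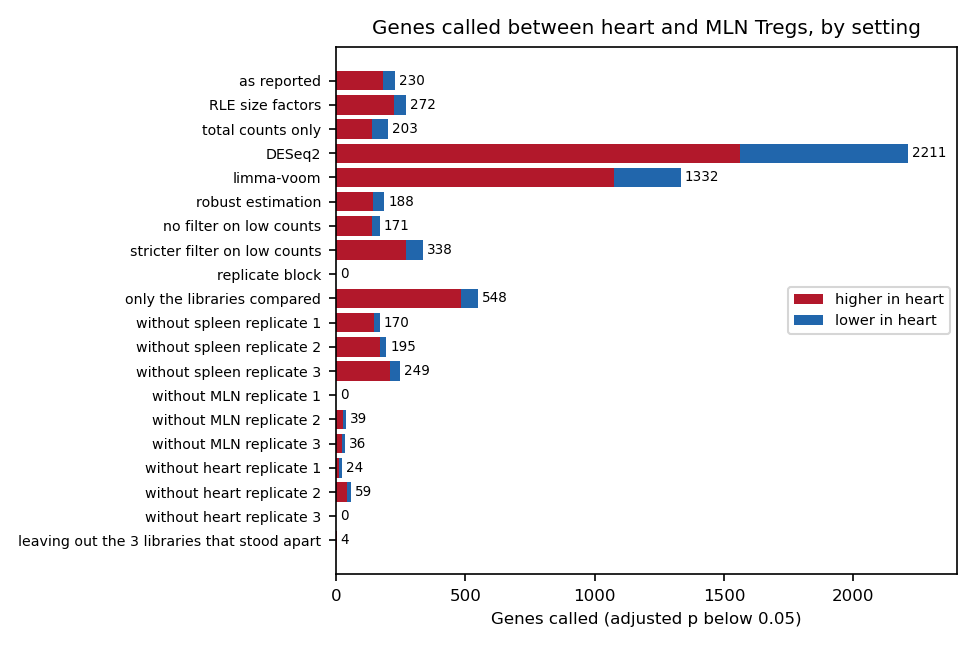
Number of genes called between heart and MLN Tregs (horizontal axis) with the fit as reported and with each alternative, split into genes higher (red) and lower (blue) in the heart. The count ran from 0 to 2211.

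T cell genes with lower levels in the heart are described first, since they have counts in both organs. In a list of 19 genes of naive and recirculating T cells 1 fell (background 0.283%) and none rose. In 6 of the 19 each heart library was below each MLN library (background 11.2%). The list's median was -0.75, against 0.12 over all genes. Ccr7, the chemokine receptor that guides T cells into nodes, was at 38.4, 479 and 134 CPM in the heart and at 994, 1418 and 680.0 CPM in the MLN (log2 -2.25, adjusted p = 0.219). The survival factor Bcl2 was at 223 to 283 CPM in the heart and 563 to 634 CPM in the MLN (adjusted p = 0.107). The organs did not overlap for either gene, yet neither passed.

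Of 19 Treg identity genes 2 fell, Ikzf2 and Izumo1r (background 0.283%), and none rose. Ikzf2 encodes Helios, a transcription factor of thymus-derived Tregs. It stood at 293, 229 and 350.1 CPM in the heart (libraries 1, 2 and 3) and at 1998, 2093 and 936 CPM in the MLN libraries. All heart libraries were below all MLN libraries, with a 5.76-fold difference (log2 -2.53, SE 0.41, adjusted p = 0.0344). Izumo1r encodes folate receptor 4, a surface protein of Tregs, and fell from 222 ± 68.2 to 29.9 ± 16.8 CPM (7.42-fold, adjusted p = 0.0419). The orphan receptor Gpr83, another marker of Tregs, was at 0.639 to 4.0 CPM in the heart and 24.6 to 31.6 CPM in the MLN, without passing (adjusted p = 0.0825).

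Further identity genes were lower in level without passing. The high-affinity IL-2 receptor chain Il2ra was at 267, 169 and 161 CPM in the heart and at 660.1, 526 and 472 CPM in the MLN (log2 -1.48, SE 0.35, adjusted p = 0.0825). Ctla4, the inhibitory receptor through which Tregs strip costimulatory ligands from other cells, was at 363, 552 and 315 CPM against 793, 798 and 564 CPM (adjusted p = 0.319). Nt5e, the ectoenzyme CD73 that makes adenosine, was at 22 to 30.9 CPM against 61.6 to 101 CPM (adjusted p = 0.0706). The partner enzyme Entpd1, or CD39, lay the other way, at 29.5 to 39.5 CPM in the heart and 7.85 to 11.7 CPM in the MLN (adjusted p = 0.08). In 10 of the 19 genes each heart library was below each MLN library (background 11.2%), and the list's median was -0.86. The counts of T cell receptor genes were lower in these heart libraries too, and their part in the identity genes was not tested.

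No gene of a list of 20 T cell receptor and coreceptor genes passed in either direction, and its median was -0.66. Trbc2, the constant part of the receptor's beta chain, was at 546, 309.6 and 439 CPM in the heart and at 1412, 1241 and 962 CPM in the MLN (adjusted p = 0.107). The adhesion receptor Cd2 was at 901 ± 456 against 2025 ± 323 CPM (adjusted p = 0.214), and the signalling chain Cd3e at 40.4 ± 10.5 against 63.1 ± 13.9 CPM (adjusted p = 0.471). The coreceptor gene Cd4 overlapped between organs, at 55.6, 176 and 31.8 CPM against 19.9, 40.2 and 53.9 CPM (adjusted p = 0.698). Cd8a, the coreceptor of cytotoxic T cells, held 19 counts in all heart libraries together and was at 4.89 to 34.1 CPM in the MLN (adjusted p = 0.144).

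Several lymphocyte genes outside these lists fell too. Tspan32 (ENSMUSG00000000244, chromosome 7, 143005046 to 143019644) encodes a tetraspanin of blood cells that restrains T cell proliferation. It stood at 10.3, 15.2 and 12.3 CPM in the heart (libraries 1, 2 and 3) and at 94.8, 119.9 and 115 CPM in the MLN libraries. The organs were far apart relative to the spread within each, with an 8.73-fold difference (log2 -3.13, SE 0.36, adjusted p = 0.0187), and the call held in 5 of 9 fits without 1 library. Rhoh, a small GTPase without GTP hydrolysis that recruits the kinase ZAP-70 to the T cell receptor, fell 5.86-fold, from 379.9 ± 39.8 to 64.8 ± 13.2 CPM (adjusted p = 0.0193). Tespa1, an adaptor of calcium signalling by the same receptor, fell 3.85-fold (adjusted p = 0.0479). Ptprcap, which associates with the phosphatase CD45, fell 3.93-fold, from 802 ± 102 to 204 ± 29.6 CPM (adjusted p = 0.0333). Rhoh, Tespa1, Ptprcap and the genes Trim59, Rabgap1l, Arpc5l and Hmgn1 named next are no part of the rule for naming genes and were picked with their values in view. Trim59, a membrane-bound ubiquitin ligase, fell 6.48-fold, and Rabgap1l, a regulator of Rab GTPases, fell 4.4-fold (adjusted p = 0.0456 and 0.0417). Arpc5l, a subunit of the actin-nucleating Arp2/3 complex, fell 4.74-fold, and the chromatin protein Hmgn1 fell 3.48-fold (adjusted p = 0.0363 and 0.0429). Bmyc, a short relative of the MYC proteins, fell 7.04-fold (adjusted p = 0.041).

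The window around the transcription start of Tspan32 is shown because this gene had a difference with small spread in both organs. RefSeq (build GRCm38.p6) places it at chr7:143004796-143005095 on the plus strand, from 250 bases before the start to 50 after it.
Tspan32: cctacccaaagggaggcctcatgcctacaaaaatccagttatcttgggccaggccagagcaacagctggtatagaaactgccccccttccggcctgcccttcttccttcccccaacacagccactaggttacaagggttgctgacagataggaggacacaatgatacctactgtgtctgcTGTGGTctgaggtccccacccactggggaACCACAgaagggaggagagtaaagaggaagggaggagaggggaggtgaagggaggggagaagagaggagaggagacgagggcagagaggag
Capitals mark matches to TGTGGT, the core that RUNX factors of T cells bind, searched on both strands, with the first match 70 bases before the start on the plus strand and the second, on the minus strand, 41 bases before it. TGTGGT was found in 16.8% of the 32851 promoter windows of that length. A match is a description of the letters and not a binding site.

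**Figure D4:**
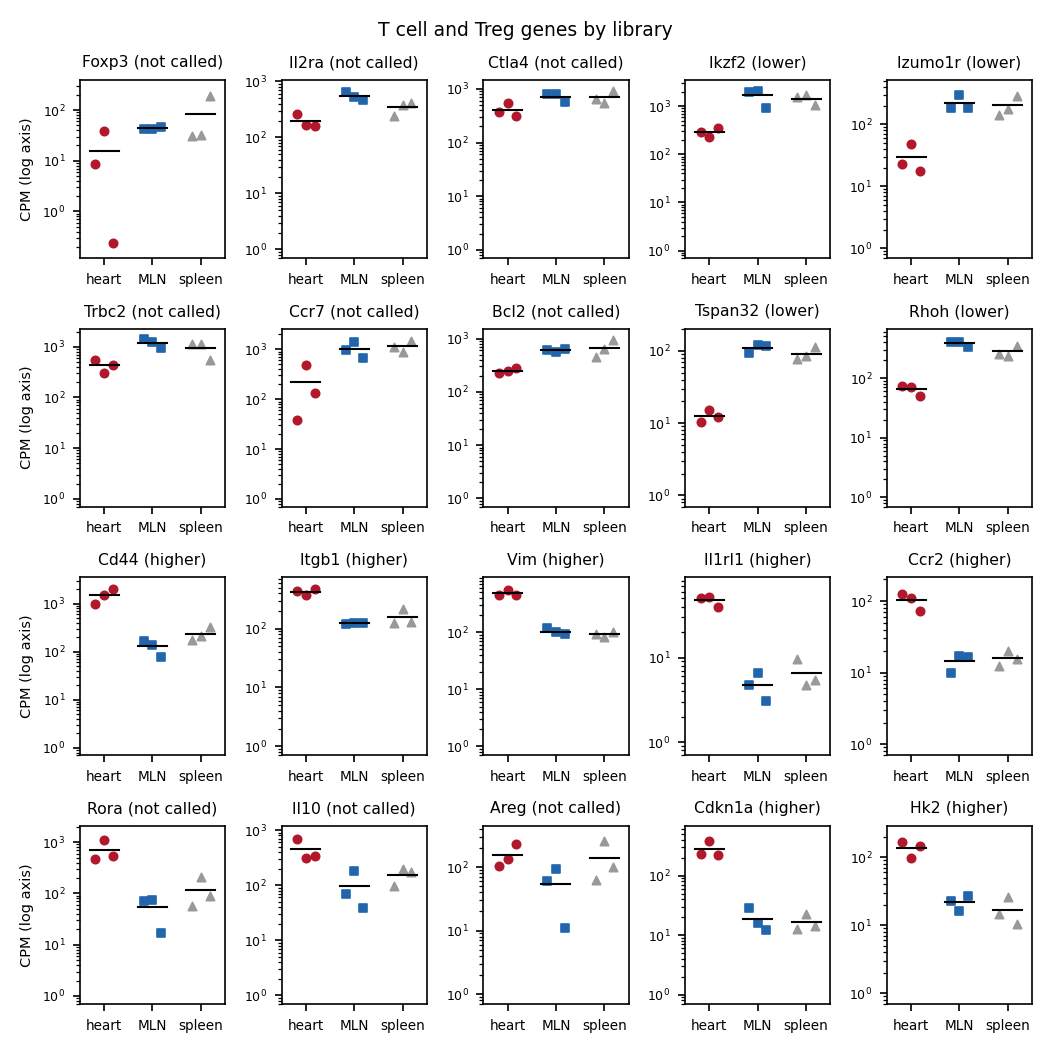
Levels of 20 genes of T cells and Tregs by library (vertical axes, CPM, log scale), 1 panel a gene, with circles for heart, squares for MLN and triangles for spleen, lines at the means and the call of heart against MLN in each title. Tspan32 and Rhoh are lower and Cd44, Vim and Il1rl1 higher in each heart library than in any MLN library, while Foxp3 in heart library 3 lies at 0.24 CPM.

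In the list of 26 effector and tissue Treg genes, 3 rose (background 1.1%) and none fell, and the median was 1.41. Cd44 (ENSMUSG00000005087, chromosome 2, 102811141 to 102901665) encodes the hyaluronan receptor of antigen-experienced T cells, which myeloid and stromal cells also carry. It stood at 977, 1493 and 2014 CPM in the heart (libraries 1, 2 and 3) and at 170.1, 138 and 78.6 CPM in the MLN libraries. The lowest heart library was several times above the highest MLN library, and the difference was 11.6-fold (log2 3.54, SE 0.47, adjusted p = 0.0204). Il1rl1 (ENSMUSG00000026069, chromosome 1, 40429570 to 40465415) encodes ST2, the IL-33 receptor of tissue Tregs and of mast cells. It was at 51.2, 51.6 and 39.2 CPM in the heart and at 4.75, 6.52 and 3.09 CPM in the MLN, with no overlap (9.88-fold, log2 3.3, SE 0.57, adjusted p = 0.0388). Cpa3, a carboxypeptidase of mast cells, stood at 6444, 3553 and 0 CPM in the same heart libraries, and the mast cell protease gene Cma1 at 1116, 578 and 8.47 CPM, against at most 0.027 CPM in the MLN. The part of mast cell RNA in the Il1rl1 values was not tested. Ccr2, the receptor for the monocyte chemoattractant CCL2, on effector T cells and on monocytes, was at 126, 109 and 73.4 CPM against 9.79, 16.8 and 16.5 CPM. Its organs did not overlap either (7.15-fold, adjusted p = 0.0308), and it also belongs to the macrophage list.

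Both RefSeq start windows of Il1rl1 are shown because the gene is transcribed from a distal and a proximal promoter and the counts per gene do not separate them. They lie at chr1:40429320-40429619 and chr1:40439379-40439678, both on the plus strand of GRCm38.p6.
Il1rl1 start 1: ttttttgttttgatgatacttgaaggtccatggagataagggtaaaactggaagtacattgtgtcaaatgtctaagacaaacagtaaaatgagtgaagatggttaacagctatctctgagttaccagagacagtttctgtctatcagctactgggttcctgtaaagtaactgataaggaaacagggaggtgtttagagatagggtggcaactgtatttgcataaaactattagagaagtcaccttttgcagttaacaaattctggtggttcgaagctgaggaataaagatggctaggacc
Il1rl1 start 2: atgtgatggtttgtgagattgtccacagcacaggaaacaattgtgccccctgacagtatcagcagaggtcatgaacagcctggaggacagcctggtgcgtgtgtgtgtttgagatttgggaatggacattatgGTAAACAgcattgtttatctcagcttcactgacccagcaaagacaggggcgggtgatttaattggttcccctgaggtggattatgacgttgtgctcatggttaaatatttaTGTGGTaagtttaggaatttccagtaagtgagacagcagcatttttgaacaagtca
Capitals in the second window mark TGTGGT 6 bases before the start on the plus strand and TGTTTAC, the core of FOXO factors, on the minus strand 117 bases before it. TGTTTAC was found in 3.65% of the 32851 windows. The first window held neither of these nor the NF-kB core given further on, which says only that those letters are not in it.

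The other members of the effector list did not pass. The nuclear receptor Rora, which is also listed for innate lymphoid cells, was at 463, 1122 and 541 CPM in the heart and at 71.7, 75.9 and 16.7 CPM in the MLN (log2 3.69, SE 0.77, adjusted p = 0.0589). The suppressive cytokine Il10 was at 688, 315 and 341 CPM against 70.1, 178 and 38.0 CPM (adjusted p = 0.12). Neither gene overlapped between organs. The growth factor Areg, or amphiregulin, was at 104, 132 and 230.4 CPM against 60.2, 93.9 and 11.2 CPM (adjusted p = 0.432). The regulator Prdm1, or Blimp-1, was at 45.6 to 92.6 CPM against 16.5 to 33.0 CPM (adjusted p = 0.275), while the costimulatory receptor Icos overlapped, at 1168 to 2156 CPM against 461 to 1615 CPM (adjusted p = 0.644). Klrg1, a marker of terminally differentiated effector cells, overlapped as well (108 ± 28.8 against 53.7 ± 31.7 CPM, adjusted p = 0.514). Pparg, the fat-tissue Treg regulator, was low in both organs, at 3.5 to 7.73 CPM in the heart and listed at 0 in 2 MLN libraries. The transcription factor Gata3 was at 13.4, 152 and 34.0 CPM against 19.8, 24.7 and 45.6 CPM, and its log2 difference of 1.15 turned to -0.34 without heart library 2.

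Id2 and Id3, inhibitors of E-protein transcription factors that are often used to tell effector from resting T cells, were both higher in level in the heart. Id2 was at 1048, 296 and 512 CPM against 217, 182 and 83.2 CPM, and Id3 at 175, 59.1 and 139 CPM against 57.0, 38.6 and 33.8 CPM. No heart library overlapped an MLN library in either gene, but neither passed (adjusted p = 0.199 and 0.175). Of 15 follicular T cell genes none was called (median -0.11), and among them Btla and Tox had non-overlapping lower levels in the heart (adjusted p = 0.175 and 0.232). None of 20 inhibitory and costimulatory receptor genes was called (median -0.10), although Cd96, an inhibitory receptor for CD155, came near with 404, 480.4 and 493 CPM in the heart and 1291, 1939 and 1059 CPM in the MLN (adjusted p = 0.0548). Tigit, a receptor for the same ligand, differed by -0.09 on the log2 scale (SE 0.48) and had overlapping libraries.

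In a list of 22 homing receptors and integrins 2 rose, Ccr2 and Itgb1 (background 1.1%, median 0.99). Itgb1, the beta-1 integrin chain that binds matrix proteins, was at 438, 375 and 470.1 CPM in the heart and at 121, 124 and 125 CPM in the MLN. The MLN libraries were almost identical and all below the heart (3.47-fold, adjusted p = 0.0429). Vim, the intermediate filament vimentin and the 1 called gene of 20 annexin, galectin and S100 genes (background 1.1%, median 1.98), was at 448, 558 and 455 CPM against 103 ± 13.2 CPM. The groups were well apart, with a 4.72-fold difference (log2 2.24, SE 0.28, adjusted p = 0.0193). Anxa1, an annexin that limits inflammation, was at 4100.0, 392 and 1729 CPM against 49.5 ± 34.2 CPM and missed the threshold (adjusted p = 0.0508).

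The genes of this paragraph are no part of the rule for naming genes either and were picked with their values in view, as called genes with counts in all 6 libraries. Ahnak, a giant scaffold protein beneath the membrane, was at 344, 572 and 459.9 CPM in the heart and at 41.0, 43.6 and 58.4 CPM in the MLN (9.63-fold, log2 3.27, SE 0.34, adjusted p = 0.0152). Litaf, which regulates endosomal sorting, was at 3483, 4616 and 3475 CPM against 297, 259.7 and 232 CPM (14.7-fold, adjusted p = 0.0152), and its call held in 7 of 9 fits without 1 library. Both showed a narrow spread within each organ beside the gap between organs. Plek, the protein kinase C substrate pleckstrin of platelets and leukocytes, rose 20.9-fold, from 109 ± 53.0 to 2278 ± 160.4 CPM (adjusted p = 0.0187). Cdkn1a, the p53-induced cell cycle inhibitor p21, was at 228, 385 and 221 CPM against 28.1, 16.1 and 12.1 CPM, with no overlap (14.8-fold, adjusted p = 0.0193). Bcl2l11, the death-promoting protein BIM, rose 4.5-fold and Jak2, a kinase of cytokine receptors, 4.79-fold (adjusted p = 0.0487 and 0.0333). The clathrin adaptor Picalm rose 4.93-fold, the cAMP phosphodiesterase Pde4b 3.52-fold and the adaptor Skap2 3.93-fold (adjusted p = 0.0193, 0.0472 and 0.0472). The repressor Zeb2, a factor of terminally differentiated T cells and of macrophages, was at 52.4, 36.6 and 69.7 CPM against 3.76, 1.65 and 1.58 CPM (22.7-fold, adjusted p = 0.0283). All of these genes are expressed by myeloid cells as well, and the part of the macrophage counts in these rises was not tested.

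Of 16 genes of the IL-1 and IL-33 family 2 rose, Il1rl1 and Il1b (background 1.1%), and none fell (median 2.47). Il1b, the inflammatory cytokine IL-1 beta made mainly by myeloid cells, was at 1025, 1526 and 2325 CPM in the heart and at 0, 1.39 and 0.383 CPM in the MLN. The heart libraries were thus all above 1000 CPM while 1 MLN library had no count (log2 11.42, SE 2.01, adjusted p = 0.0407). Il1a was at 686, 284 and 674 CPM against at most 0.144 CPM (adjusted p = 0.0645), and Il1r2, the decoy receptor for both cytokines on neutrophils and Tregs, at 234 ± 78.8 against 19.6 ± 5.23 CPM (adjusted p = 0.108). Il33, the ligand of ST2, had no MLN count and was at 285, 11.6 and 1.01 CPM in the heart, so that 1 heart library held most of it (adjusted p = 0.126). Among 25 T helper factors and cytokines none was called (median 1.18), with Tnf at 34.8 to 123 CPM in the heart and 0.529 to 6.01 CPM in the MLN (adjusted p = 0.0902) and Il6 at 24.1 to 611 against 0 to 2.23 CPM (adjusted p = 0.15).

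Chemokine ligands rose in 5 of 28 genes tested, and none fell (background 1.1% higher, median 5.73). Cxcl2 (ENSMUSG00000058427, chromosome 5, 90903871 to 90905938), which attracts neutrophils, stood at 535, 563 and 907 CPM in the heart (libraries 1, 2 and 3) and at 2.35, 0.333 and 2.49 CPM in the MLN libraries. The difference was 388-fold (log2 8.6, SE 1.06, adjusted p = 0.0193), and the spleen libraries lay at 4.24, 20.1 and 11 CPM. Ccl7, a monocyte attractant, was at 4982, 331 and 882 CPM against 0.216, 2.22 and 0.0696 CPM (adjusted p = 0.0472), and Ccl6 at 883, 589 and 1696 CPM against 70.8, 22 and 5.26 CPM (32.3-fold, adjusted p = 0.0479). The eosinophil attractant Ccl11, at 202, 18.1 and 182 CPM, and the stromal chemokine Cxcl14, at 50.5, 22.5 and 18.3 CPM, had no count in MLN or spleen. Their differences were therefore lower bounds, with Cxcl14 at least 2311-fold higher (adjusted p = 0.0386). Ccl4, a chemokine that activated T cells and macrophages make, was at 4146, 826 and 3183 CPM against 125, 30.1 and 40.5 CPM and missed the threshold (adjusted p = 0.0515). In a list of 25 NF-kB and TNF response genes Cxcl2 alone was called (background 1.1%, median 1.87). The inhibitor Nfkbiz was at 118, 242 and 222 CPM against 27.4, 26.6 and 41.2 CPM (adjusted p = 0.0741). Nfkbia, the feedback inhibitor of the pathway, was at 861 to 1668 CPM against 556 to 639.6 CPM (adjusted p = 0.182). The part of macrophage and stromal RNA in the chemokine and NF-kB genes was not tested.

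The start window of Cxcl2 is shown because its call held in 5 of 9 fits without 1 library, against 0 to 4 for the other 4 called chemokine genes, and NF-kB is its textbook regulator. RefSeq places it at chr5:90903649-90903948, plus strand of GRCm38.p6.
Cxcl2: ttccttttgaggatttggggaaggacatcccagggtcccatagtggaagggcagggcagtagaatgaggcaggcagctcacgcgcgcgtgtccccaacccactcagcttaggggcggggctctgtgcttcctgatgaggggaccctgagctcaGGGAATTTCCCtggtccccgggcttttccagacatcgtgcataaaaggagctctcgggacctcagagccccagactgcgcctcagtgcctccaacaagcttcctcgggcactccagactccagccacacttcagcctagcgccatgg
Capitals mark the NF-kB core GGGA and TTCC with any 2 bases between them, searched on both strands, which matched on the plus strand 97 bases and on the minus strand 96 bases before the start, the matches overlapping in all but their outer bases. It was found in 1.47% of the 32851 windows.

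Egr1, a transcription factor that activated cells induce, was the 1 called gene of 30 immediate early and dissociation genes (background 1.1%, median 1.86). All 30 had a log2 difference above 0, against 8879 of the 16609 genes tested. In 16 of the 30 each heart library was above each MLN library (background 14.9%). The part of tissue handling in these values was not tested and cannot be told apart from that of the organ. Egr1 was at 48.5, 91.2 and 59.5 CPM in the heart and at 4.99, 2.94 and 11.3 CPM in the MLN, without overlap (10.3-fold, adjusted p = 0.0479). Atf3, a stress-induced repressor, was at 1051 to 1313 CPM against 71.2 to 101 CPM (adjusted p = 0.0961), and Fos at 287, 593 and 157 CPM against 55.3, 45.0 and 71.7 CPM (adjusted p = 0.226). None of 26 type I interferon response genes was called (median 0.49).

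Repair and growth factors rose in 2 of 27 genes, Sparc and Fstl1 (background 1.1%), with a list median of 4.43. In 19 of the 27 each heart library was above each MLN library (background 14.9%). Sparc (ENSMUSG00000018593, chromosome 11, 55394500 to 55423183) encodes a collagen-binding matrix protein that controls collagen deposition. It reached 1242, 1163 and 581 CPM in the heart (libraries 1, 2 and 3), had no count in any MLN library, and was at 0.103, 0.109 and 6.69 CPM in the spleen. It was at least 75596-fold higher in the heart than in the MLN (adjusted p = 0.0454), and the call held in 3 of 9 fits without 1 library. Fstl1, a secreted glycoprotein of fibroblasts, was at 873, 115 and 211 CPM with no count in MLN or spleen (at least 30339-fold, adjusted p = 0.0364). Both genes are typical of fibroblasts. The collagen genes Col3a1 and Col1a1 were at 703, 103 and 157 and at 159, 48.7 and 57.0 CPM in the same heart libraries. Like Sparc both were highest in heart library 1. They were lowest in heart library 2, while Sparc was lowest in heart library 3. The part of fibroblast RNA in the Sparc values was not tested. Further repair genes did not pass, among them Hbegf, an EGF receptor ligand, at 22.6 to 49.7 against 6.04 to 8.71 CPM (adjusted p = 0.0954). Igf1, a growth factor that macrophages make in healing muscle, was at 208, 39.4 and 63.0 CPM against 4.06, 8.72 and 1.62 CPM (adjusted p = 0.0648), and Spp1, or osteopontin, at 9189, 816 and 2948 CPM against 0.682, 4.16 and 0.0271 CPM (adjusted p = 0.116).

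In the TGF-beta pathway 1 of 20 genes rose (background 1.1%, median 1.33). Tgfbi, a TGF-beta-induced matrix protein that macrophages also make, was at 105, 685 and 272 CPM against 1.18, 1.01 and 3.52 CPM, with no overlap (186-fold, log2 7.54, SE 1.31, adjusted p = 0.0396). The cytokine gene Tgfb1 was low in both organs (3.14 ± 2.54 and 1.19 ± 0.201 CPM, adjusted p = 0.652). Itgav, an integrin chain that activates latent TGF-beta, was at 90.2 to 182 CPM against 32.6 to 44.5 CPM (adjusted p = 0.104). The receptor of the IL-2 and STAT5 list Il2ra is given above, and none of that list's 16 genes passed (median -0.21).

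Genes of glucose and fatty acid use differed in a few members. Hk2, an inducible hexokinase that commits glucose to glycolysis, was at 168, 97.0 and 145 CPM in the heart and at 22.7, 16.1 and 26.8 CPM in the MLN. The organs did not overlap (6.24-fold, log2 2.64, SE 0.47, adjusted p = 0.0419), and Hk2 was the 1 called gene of 27 in the glycolysis and hypoxia list (background 1.1%, median 1.34). The hypoxia-inducible factor Hif1a was at 153, 189.8 and 191 CPM against 86.0, 65.3 and 60.1 CPM (adjusted p = 0.07). Gapdh, which has many near-identical pseudogenes and whose count is therefore uncertain, was only at 5.4 to 13.1 and 2.24 to 3.91 CPM. Of 24 fatty acid genes 3 rose, Cd36, Fabp4 and Fabp3 (background 1.1%, median 0.44). Cd36, a fatty acid and scavenger receptor of tissue Tregs, macrophages and endothelium, was at 6954, 1152 and 1421 CPM against 52.3, 27.7 and 28.0 CPM (88.3-fold, adjusted p = 0.0283). Fabp4, a fatty acid carrier of endothelium and macrophages, was at 651, 157 and 331 CPM against 0.797, 0.338 and 0.00773 CPM (adjusted p = 0.0419). Fabp3, the muscle form, is described with the muscle genes. Oxidative phosphorylation, cholesterol biosynthesis, and unfolded protein and heat shock genes had no called member of 25, 20 and 23, with medians of 0.21, -0.16 and 0.22, and DNA replication and mitosis genes had 0 of 30 (median -0.26).

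Of 22 lysosome and cathepsin genes 5 rose, Ctsb, Ctsc, Ctsl, Lgmn and Cd68 (background 1.1%, median 2.21). Ctsc, the cathepsin that activates granzymes in cytotoxic cells, was at 980.1, 717 and 1122 CPM against 237, 224 and 134 CPM (4.73-fold, adjusted p = 0.03). Lgmn, or legumain, a protease of the endosome, was at 2357, 2551 and 1968 CPM against 160.3, 344 and 441 CPM (7.28-fold, adjusted p = 0.0479). Neither overlapped between organs. Ctsb rose 6.63-fold and Ctsl 29.9-fold (adjusted p = 0.0403 and 0.0327). Cd68 also belongs to the macrophage list, and the part of macrophage RNA in these 5 rises was not tested.

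In the macrophage and monocyte list 12 of 31 genes rose and none fell (background 1.1% higher, median 4.99). Fcer1g and Tyrobp encode signalling adaptors of myeloid and natural killer receptors. Fcer1g was at 4328, 958 and 3859 CPM in the heart and at 154, 158 and 155 CPM in the MLN (19.6-fold, adjusted p = 0.023), and Tyrobp at 2594, 858 and 3625 CPM against 121, 115 and 92.7 CPM (21.5-fold, adjusted p = 0.0215). Both were lowest in heart library 2. The MLN libraries differed little from each other. Cd14, the coreceptor for endotoxin, was at 260.4, 229.8 and 257 CPM against 0.245, 0.63 and 0.0348 CPM (821-fold, adjusted p = 0.0193). Cd68, a lysosomal glycoprotein, rose 42.1-fold and Fcgr3, an activating antibody receptor, 22.6-fold (adjusted p = 0.0187 and 0.0193). The complement subunits C1qa and C1qb rose 38.9-fold and 51.8-fold (adjusted p = 0.0362 and 0.0333). Lyz2, the lysozyme of macrophages and neutrophils, rose 12.4-fold, from 417 ± 214 to 5166 ± 2184 CPM (adjusted p = 0.0383). Trem2, a lipid receptor of reparative macrophages, was at 41.2, 20.9 and 28.9 CPM with no count in MLN or spleen (at least 2302-fold, adjusted p = 0.0343). The macrophage receptors Adgre1, Mrc1 and Csf1r, which define the cell type, were at 540.1 to 657, 317 to 704 and 48.1 to 145 CPM in the heart. In the MLN they were at 0 to 40.7, 0 to 15.6 and 0.17 to 10.7 CPM. The organs did not overlap for any of them, yet none passed (adjusted p = 0.491, 0.299 and 0.155).

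Among further called genes, picked with their values in view, were 3 of a cluster on chromosome 19, Ms4a4a, Ms4a6c and Ms4a6d, which encode related membrane proteins of myeloid cells. Ms4a4a was at 562, 414 and 749 CPM against 42.7, 47.4 and 31.2 CPM (14.2-fold, adjusted p = 0.0152), Ms4a6c rose 13.9-fold (adjusted p = 0.0283), and Ms4a6d 15.2-fold (adjusted p = 0.0198). Reads shared by such related genes could be split, so the single folds are uncertain. Alox5ap and Alox5 encode the activating protein and the enzyme that make leukotrienes. Alox5ap was at 284, 183 and 483 CPM against 21.7, 13.7 and 4.03 CPM (24.1-fold, adjusted p = 0.0308), while Alox5 was at 17.1, 33.8 and 22.9 CPM with no count in MLN or spleen (adjusted p = 0.0386). The groups did not overlap in any of these 5 genes. Mt1, a metal-binding metallothionein, rose 39.7-fold and the ferritin heavy chain Fth1 6.54-fold, from 1753 ± 225 to 11456 ± 4495 CPM (adjusted p = 0.0479 and 0.0381).

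**Figure D5:**
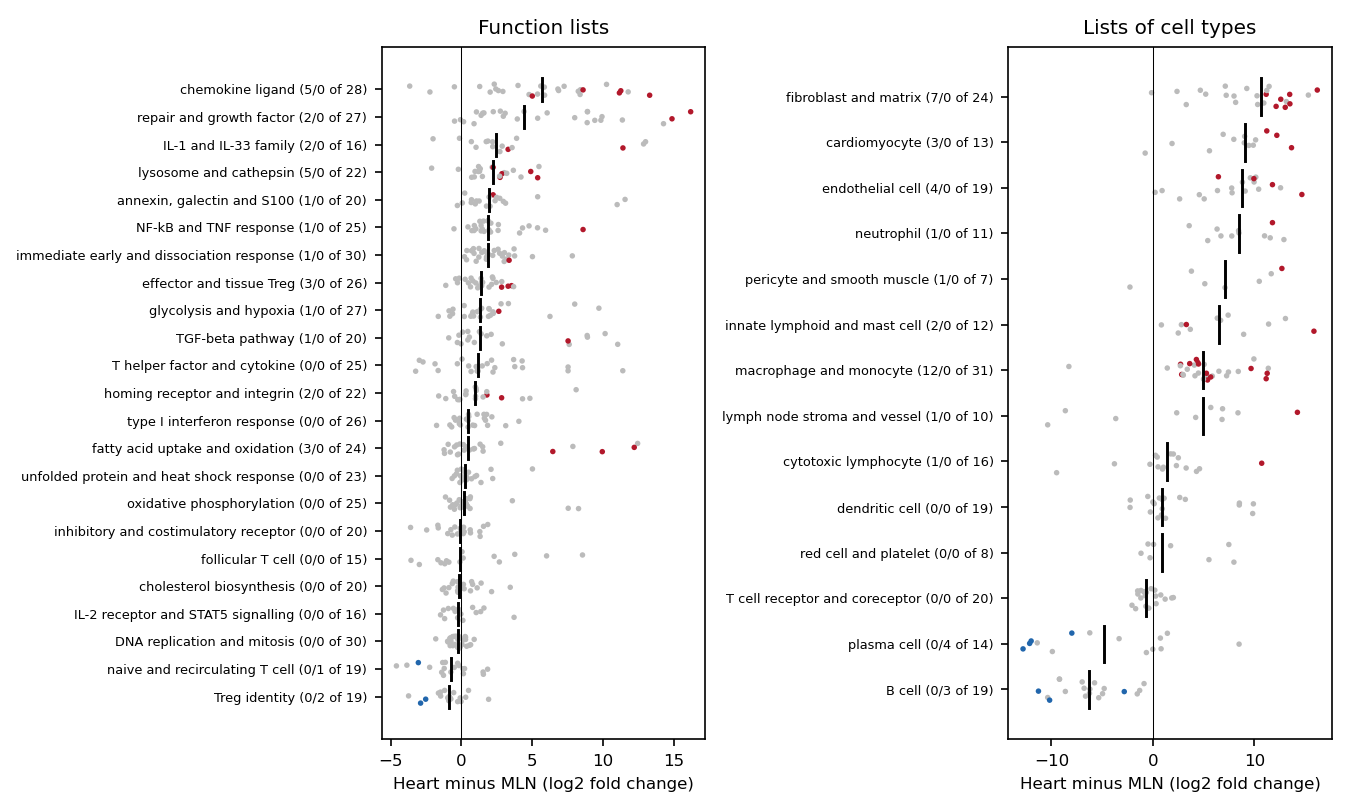
Log2 difference of heart minus MLN (horizontal axes) for each tested gene of 23 function lists (left) and 14 lists of cell types (right). Red points rose, blue points fell, grey points were not called, black lines are list medians, and the numbers in brackets are genes called higher, called lower and tested, with genes empty in 1 organ drawn at their lower bound.

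Fibroblast and matrix genes rose in 7 of 24 (background 1.1%, median 10.64), namely Dcn, Mgp, Bgn, Fbln1, Col5a1, Col5a2 and Sparc. Dcn (ENSMUSG00000019929, chromosome 10, 97479609 to 97518143), the proteoglycan decorin that organises collagen fibrils, was at 16297, 2171 and 3797 CPM against 3.65, 1.37 and 4.67 CPM. It had counts in all libraries, and its call held in 7 of 9 fits without 1 library (log2 11.17, SE 1.16, adjusted p = 0.0152). Fbln1, an elastic fibre protein, was at 60.9, 118 and 69.2 CPM, and Col5a1, a fibril collagen, at 109, 42.4 and 28.2 CPM, with no count in MLN or spleen (at least 6268-fold and 4538-fold). Smoc2, a matrix protein related to SPARC, was at 402, 233 and 162 CPM (at least 20174-fold, adjusted p = 0.0193), and Sparcl1, another relative, at 719, 222 and 195 CPM (at least 28748-fold, adjusted p = 0.0424). Further genes with no MLN count that the rule for named genes took were Abca8a, a lipid transporter of fibroblasts, at 113 to 210.4 CPM (at least 13518-fold, adjusted p = 0.0187), and Srpx, at 78.6 to 261 CPM (at least 13489-fold, adjusted p = 0.0215). Cadm2, an adhesion molecule best known from neurons, was at 108, 362 and 485 CPM (at least 24176-fold, adjusted p = 0.0264). Podoplanin, Pdpn, a mucin of fibroblasts, lymphatic vessels and lymph node stroma, was at 338, 296 and 135 CPM without a count in the MLN, although it was listed as a marker of node stroma (adjusted p = 0.0487).

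Of 19 endothelial genes 4 rose, Cd36, Fabp4, Emcn and Ptprb (background 1.1%, median 8.83). Emcn, a sialomucin of capillaries and veins, was at 773, 47.9 and 222 CPM (at least 26396-fold, adjusted p = 0.0472), and Ptprb, a phosphatase of endothelial junctions, at 47.9, 63.2 and 29.0 CPM (at least 3548-fold, adjusted p = 0.0283). The junction protein Pecam1, which leukocytes share, was at 174 to 249.9 against 92.6 to 122 CPM (adjusted p = 0.314). Rgs5, a pericyte gene, was the 1 called gene of 7 in its list (background 1.1%, median 7.11), at 142, 93.5 and 29.9 CPM with no count in MLN or spleen (adjusted p = 0.0319). The basement membrane collagens Col4a1 and Col4a2, encoded side by side on chromosome 8, were at 89.9 to 307 and 33.2 to 359 CPM with no MLN count (at least 16338-fold and 16377-fold). Both collagens and Ptprb were highest in heart library 2, while Emcn, Fabp4, Cd36 and Rgs5 were highest in heart library 1, as Dcn was.

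Heart muscle genes rose in 3 of 13 (background 1.1%, median 9.05). Mb, the oxygen store myoglobin, was at 61.0, 110.3 and 345 CPM, Myl2, the ventricular myosin light chain, at 24.6, 22.9 and 47.5 CPM, and Fabp3 at 67.3, 43.8 and 77.6 CPM, all with no count in MLN or spleen. These 3 called genes were highest in heart library 3, where stromal genes such as Dcn were not. Not all genes of the list had this order, and another member was highest in heart library 1. The lower bounds were 13072-fold for Mb and 4776-fold for Fabp3 (adjusted p = 0.0333 and 0.0218). Cardiac troponin T, Tnnt2, was at 0.864, 15.5 and 3.2 CPM, highest in heart library 2, and did not pass (adjusted p = 0.151).

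Mast cell and neutrophil genes were present in the heart libraries with large spread. Cma1, the mast cell chymase, was at 1116, 578 and 8.47 CPM against at most 0.027 CPM in the MLN (adjusted p = 0.0407), and it was called with Il1rl1 among 12 innate lymphoid and mast cell genes (background 1.1%, median 6.51). Cpa3 did not pass (adjusted p = 0.29). Lcn2, a siderophore-binding protein of neutrophils, was the 1 called gene of 11 in the neutrophil list (background 1.1%), at 21.0, 10.8 and 16.9 CPM in the heart and 3 counts in all of the MLN (adjusted p = 0.0363). The alarmin S100a8 was at 315, 226 and 1071 CPM against at most 0.526 CPM (adjusted p = 0.0646). Dendritic cell genes had no called member of 19 (median 0.92). Among 16 cytotoxic lymphocyte genes 1 rose (background 1.1%), Klra8, a receptor of natural killer cells, at 22.3 ± 10.8 CPM with no count in MLN or spleen (adjusted p = 0.0453). Gzmb, the protease granzyme B that effector Tregs also make, overlapped, at 373 to 557 CPM against 306 to 493 CPM (adjusted p = 0.879).

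Of 19 B cell genes 3 fell, among them Blk and Ighm (background 0.283%, median -6.25). Blk, a kinase of the B cell receptor, was at 19.5, 13.1 and 72.4 CPM in the MLN and had no heart count (at least 2479-fold lower, adjusted p = 0.0198). It was highest in MLN library 3. Ighm, the IgM heavy chain, was at 474, 516 and 670.0 CPM in the MLN and at 45.3, 125 and 64.4 CPM in the heart (7.08-fold, log2 -2.82, SE 0.44, adjusted p = 0.0319). Of 14 plasma cell genes 4 fell, all of them antibody genes (background 0.283%, median -4.78). Ighg2b, the IgG2b heavy chain, was at 42.9, 151 and 108 CPM in the MLN, at 3.25, 2.53 and 8.06 CPM in the spleen and without a count in the heart (at least 7123-fold lower, adjusted p = 0.0152). The light chain gene Iglc2 was at 172, 75.0 and 523 CPM against at most 0.164 CPM (adjusted p = 0.0396), and reads of such near-identical light chain segments could be split between them. The plasma cell gene Jchain overlapped, at 635, 137 and 53.0 CPM against 0, 0.97 and 80.9 CPM (adjusted p = 0.6). Of the 47 fallen genes, 19 carried names of clones, models or gene segments. Scg5, a chaperone of secretory granules, was at 73.8, 12.8 and 109 CPM with no heart count (at least 4611-fold lower, adjusted p = 0.0187), and Fsd2, a muscle protein, at 5.82, 4.38 and 24.6 CPM (at least 821-fold lower, adjusted p = 0.0344).

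Genes that bear on RNA content differed in share. Cytosolic ribosomal protein genes took 3.51, 2.29 and 4.0% of counts in heart libraries 1, 2 and 3 and 7.11, 7.27 and 6.97% in the MLN libraries, without overlap, and none of 87 passed (median -0.80). The mitochondrially encoded genes overlapped, at 1.17, 0.689 and 2.31% against 1.45, 1.08 and 0.972%, with none of 31 called (median 0.47).

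Spleen Tregs give a second lymphoid organ beside the MLN. Between MLN and spleen 0 genes passed the edgeR test (955 at an unadjusted p below 0.05, lowest adjusted p = 0.110), while DESeq2 called 779 and limma-voom 3. Against the spleen 131 genes (0.789%) differed from the heart, and since both comparisons share the heart libraries their values are only set side by side. The difference of heart minus spleen was -2.86 for Tspan32 (adjusted p = 0.0238), -2.31 for Ikzf2 (0.0492) and -2.75 for Izumo1r (0.0585). For Cd44 it was 2.66 (adjusted p = 0.0452), for Vim 2.4 (0.0238), for Ccr2 2.7 (0.0398) and for Il1rl1 2.83 (0.0651). MLN and spleen differed by 0.27 for Tspan32, -0.88 for Cd44 and -0.47 for Il1rl1, and none of these passed (adjusted p = 1, 0.839 and 1).

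Of the 101 risen genes without an MLN count, 16 had counts in the spleen. Ptpro, a receptor phosphatase of leukocytes, was at 166, 58.1 and 135 CPM in the heart and at 15, 53.5 and 63.4 CPM in the spleen. Cadm1, an adhesion molecule of dendritic and epithelial cells, was at 170.4, 203 and 13.5 CPM in the heart and at 32.0, 43.2 and 117 CPM in the spleen. Both overlapped between heart and spleen and were empty only in the MLN. Aph1c, a subunit of the gamma-secretase protease, was at 28.6, 28.0 and 37.6 CPM in the heart and at 6.63, 2.62 and 3.93 CPM in the spleen, and the scaffold gene Sash1 at 148, 65.5 and 143 against 1.88, 4.05 and 14.2 CPM. The test of MLN against spleen gave adjusted p = 0.110 for Ptpro and Aph1c, 0.199 for Sash1 and 0.237 for Cadm1. These 4 genes were picked with their values in view.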

How the data were processed

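The 9 libraries were deposited as 1 table of raw read counts per gene, not normalized. Per the submitters' processing notes, CASAVA 1.8.2, HISAT2, HTSeq 0.6.0 and the mouse build mm10 were used. Strand setting, aligner version and annotation release were not given in the sources used here, so counts of overlapping, antisense and near-identical genes are uncertain. The kit amplifies cDNA by PCR without molecular identifiers, so floors cover counting error only.

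Of 49510 genes, 16609 passed edgeR's filter (minimum count 10, minimum total 15). The test was edgeR 4.0.16 (R 4.3.3) with 1 quasi-likelihood model of organ over all 9 libraries (6 residual degrees of freedom, TMM scaling), two-sided, with Benjamini-Hochberg adjustment over all genes tested and a threshold of 0.05. The median biological coefficient of variation was 102%. All pairs of libraries of an organ differed beyond sampling noise, and each was kept as its own replicate. The SE of a log2 difference was derived from the F statistic. Where an organ had no count, the fold is a lower bound at 3 counts per library. The method was tested on simulated counts with known fold changes in genes of high level. Recovery was required there only at a spread below that of these libraries. DESeq2 1.42.0 and limma 3.58.1 (voom) served as alternatives. Coordinates are from GENCODE vM21 (GRCm38), in which 49326 gene identifiers were found. Symbols shared by more than 1 gene numbered 84, and list counts are of gene identifiers.

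The members and lists were chosen with earlier results of these data known. Named genes are the 12 highest and 12 lowest by log2 difference among called genes with non-overlapping libraries, at least 10 CPM in the higher organ and no clone or segment name, up to 4 called members of each list, the 3 members with the highest mean level of each list, and a fixed set of Treg genes. Some genes that this rule names are not reported here. Others were chosen after their values were seen. Beside those marked in the report they are Adgre1, C1qa, C1qb, Ccl6, Col1a1, Col3a1, Col5a2, Csf1r, Entpd1, Fos, Fth1, Gapdh, Gpr83, Hbegf, Hif1a, Igf1, Il33, Il6, Mgp, Mrc1, Mt1, Nfkbia, Nfkbiz, Nt5e, Pecam1, Prdm1, Tnf, Tnnt2 and Trem2. Medians of lists take genes empty in 1 organ at their lower bound.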

Additional observations from a re-analysis of the deposited data

How the results depend on the processing

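The count of 230 genes moved by over 1.5 times with DESeq2 (2211), with limma-voom (1332) and with the fit restricted to the 6 heart and MLN libraries (548), and fell to 4 without the 3 libraries that stood apart, an alternative chosen after seeing the data. Leaving out 1 library at a time gave 0 to 249 genes. The cause of these shifts was not tested. Size factors by relative log expression (272), total counts only (203), robust estimation (188), no filter on low counts (171) and a stricter filter (338) stayed within 1.5 times. Between MLN and spleen DESeq2 called 779 genes and limma-voom 3, and the other alternatives, run with edgeR, called 0. The labels number the libraries of each organ 1 to 3. With this number as a replicate block, 0 genes were called between heart and MLN (2077 at an unadjusted p below 0.05), and 0 between MLN and spleen (487). Deviations of same-numbered heart and MLN libraries correlated at 0.067, -0.033 and -0.009, and heart library 2 correlated best with MLN library 3 (0.114). The labels state no pairing. With so few libraries an organ these correlations cannot decide whether same-numbered libraries share an animal or a batch. The 100 called genes named here kept their direction in all 1900 values under alternatives and stayed called in 1054 of them. Of 56 named genes that were not called, 82 of 1064 values passed under an alternative and 8 changed sign, in Gata3 and Tigit. The difference of Gata3 ranged from -0.34 to 1.64 with 1 library left out, and that of Tigit from -0.46 to 0.21. With all libraries, that of Tigit was 0.01 with relative log expression factors and with DESeq2, 0.09 with limma-voom and 0.08 with the replicate block. Counts of called list members stayed within 1.5 times in 417 values and moved further in 324. At these depths a count of 0 allows up to 3 counts in a library, at most 0.0168 CPM in the heart and MLN libraries.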

Other observations

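The genes called higher in the heart also held several of growth factors and receptors, and those named in this section were picked with their values in view. Ntf3, which encodes the growth factor neurotrophin-3, stood at 60.5, 28.1 and 50.7 CPM in the heart (libraries 1, 2 and 3) and had no count in the other organs. It was at least 3524-fold higher in heart than MLN by the floor of 3 counts, with an adjusted p of 0.0283 from edgeR. Inhba, whose product forms activin A, was at 10.4, 14.1 and 34.2 CPM and likewise without a count in MLN or spleen (at least 1487-fold, adjusted p = 0.0487). The growth hormone receptor gene Ghr, empty in both other organs too, was at 33.5, 26.2 and 9.68 CPM (at least 1756-fold, adjusted p = 0.0454). Lifr, the receptor of leukemia inhibitory factor, was at 14.8, 19.2 and 16.3 CPM in the heart, without a count in the MLN and at 5.87, 0.713 and 0.124 CPM in the spleen (adjusted p = 0.0479). Il1f9, an older symbol for the IL-36 gamma gene, was at 18.4, 34.5 and 44.7 CPM in the heart with no count elsewhere (adjusted p = 0.0345), and it is not among the 16 IL-1 family genes counted in the report. The stromal, muscle and macrophage genes described in the report were present in these same libraries, and their part in these genes was not tested.

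Among called genes with counts in all 6 libraries, Dennd4a, an activator of the vesicle GTPase RAB10, was at 368, 357 and 338 CPM in the heart, at 31.5, 41.3 and 16.7 CPM in the MLN and at 116, 183 and 83.0 CPM in the spleen. The heart was 11.9-fold above the MLN (log2 3.57, SE 0.47, adjusted p = 0.0198), while the spleen lay between them (MLN minus spleen log2 -2.09, adjusted p = 0.684). The lamin gene Lmnb1 was at 175, 448 and 288 CPM against 53.1, 48.5 and 37.1 CPM in the MLN (6.57-fold, adjusted p = 0.0388). Ctnna1, or alpha-catenin, which links cadherins to actin, was at 788, 577 and 705 CPM against 182, 122 and 69.8 CPM (5.54-fold, adjusted p = 0.0344). Neither of these overlapped between heart and MLN. Of the 9 fits that each left out 1 library, between 1 and 4 kept the call of each gene of this section.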
